A study of Mus musculus with 8 samples.

Results

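The genes described here encode voltage-gated calcium channels and their auxiliary subunits, the calcium release channels of the endoplasmic reticulum, a selection of potassium channels with their interacting proteins, and ionotropic glutamate receptors. The set has 53 genes of the 21774 protein-coding genes annotated on the chromosomes. All 53 were found in the gene table, and all lie on autosomes. A region of differential hydroxymethylation was counted in a gene when its midpoint lay within the gene's span extended by 1 kb at both ends. By this rule the 53 genes held 92 of 12594 regions, 0.731% of the total, and no region was shared between channel genes.

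The regions come from CMS-IP, in which bisulfite turns 5-hydroxymethylcytosine into an adduct that an antibody then pulls down. The 8 samples form 4 groups of 2. CMS-IP and matching input libraries were each made from Ogt iKO cells, which are Ogt fl/fl mouse embryonic stem cells grown for 6 days with 4-hydroxytamoxifen, and from Ctrl cells of the same Ogt fl/fl genotype grown without it. All cells were cultured on feeder fibroblasts with LIF and sorted for viable stem cells with antibodies to CD90.2 and CD326. The labels give CD90.2 as the marker of the stem cells and CD326 as that of the feeders, the reverse of the common use of these antigens. Only the treated cells were in addition sorted as YFP+, so that loss of Ogt, exposure to the drug and the YFP sort cannot be told apart by the design. The driver of the recombinase is not given in the sources used here.

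The data are the authors' deposited tables of regions, 8578 with higher and 4016 with lower CMS-IP signal in the knockout, here called higher and lower regions. The names of these tables spell the knockout OgtiTKO, which was taken to mean the Ogt iKO cells, and every direction below rests on that reading. They give positions on mm10 without a fold change, a p-value or a value per sample. The depth of the libraries and the error between replicates are therefore unknown, the deletion of Ogt and the labelled cell type were not checked here, and no p-value is given below. Intervals cover counting error only and treat regions as independent, which regions of 1 gene may not be.

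5-hydroxymethylcytosine is made by TET dioxygenases from 5-methylcytosine, mostly at CpG dinucleotides, and in many cell types it marks gene bodies and enhancers more than CpG-rich promoters. OGT, the enzyme that attaches O-GlcNAc to nuclear and cytosolic proteins, binds TET proteins. Ion channel genes matter mostly to neurons, muscle and endocrine cells. In these tissues, voltage-gated channels turn changes of membrane potential into ion flow, release channels empty calcium stores into the cytosol, and ionotropic glutamate receptors open at excitatory synapses. Many of these genes are very long, because they carry large introns, and a long gene offers more room for a region.

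The start of transcription is the natural reference point for a CpG mark, and the starts of the L-type calcium channel genes Cacna1c and Cacna1d and of the potassium channel gene Kcnc1 are shown because the results below refer to regions around them. Each sequence is the 250 bases before an annotated start (RefSeq, GRCm38.p6, the assembly of mm10), 5′ to 3′ on the strand of the gene, with every CpG in capitals. Cacna1c and Cacna1d, which hold the most higher regions of the set together with Itpr1, each have a CpG-poor outer start and a CpG-rich start further inside the gene. Outer means outermost of the listed starts. The annotated span of Cacna1c reaches 119197384, beyond its outer start, so that window lies inside the span. The span of Kcnc1 begins at 46396219, so its window is also almost wholly inside the span. Another start listed inside Cacna1c is not shown.
Cacna1c outer start, chr6:119196410-119196659, minus strand: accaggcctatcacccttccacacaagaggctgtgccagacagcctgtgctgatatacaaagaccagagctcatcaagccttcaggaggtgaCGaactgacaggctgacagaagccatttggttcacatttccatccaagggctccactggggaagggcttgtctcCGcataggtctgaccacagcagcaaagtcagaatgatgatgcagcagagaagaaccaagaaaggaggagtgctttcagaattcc
Cacna1c inner start, chr6:119108496-119108745, minus strand: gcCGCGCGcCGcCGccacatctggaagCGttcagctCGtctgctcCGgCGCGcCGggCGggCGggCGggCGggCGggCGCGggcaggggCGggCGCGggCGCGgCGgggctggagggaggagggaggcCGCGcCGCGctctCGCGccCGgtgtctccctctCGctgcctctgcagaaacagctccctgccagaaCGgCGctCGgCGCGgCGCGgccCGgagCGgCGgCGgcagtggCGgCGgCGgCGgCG
Cacna1d outer start, chr14:30491157-30491406, minus strand: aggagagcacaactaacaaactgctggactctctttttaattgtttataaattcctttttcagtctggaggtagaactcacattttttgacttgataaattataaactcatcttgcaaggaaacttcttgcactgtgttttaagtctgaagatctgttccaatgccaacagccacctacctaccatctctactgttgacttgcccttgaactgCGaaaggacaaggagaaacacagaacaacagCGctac
Cacna1d inner start, chr14:30353487-30353736, minus strand: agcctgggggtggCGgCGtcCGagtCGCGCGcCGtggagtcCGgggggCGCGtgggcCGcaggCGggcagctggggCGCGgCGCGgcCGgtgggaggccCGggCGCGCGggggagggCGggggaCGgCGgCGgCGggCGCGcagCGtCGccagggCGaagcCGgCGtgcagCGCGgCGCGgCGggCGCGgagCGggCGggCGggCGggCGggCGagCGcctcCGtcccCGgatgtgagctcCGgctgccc
Kcnc1 start, chr7:46396218-46396467, plus strand: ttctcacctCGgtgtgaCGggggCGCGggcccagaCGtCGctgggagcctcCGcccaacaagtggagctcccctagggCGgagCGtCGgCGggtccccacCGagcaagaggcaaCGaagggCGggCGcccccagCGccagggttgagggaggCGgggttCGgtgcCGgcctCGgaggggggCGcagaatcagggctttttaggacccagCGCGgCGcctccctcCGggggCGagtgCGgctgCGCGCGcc

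These windows span nearly the whole range of CpG content. The inner start of Cacna1c held 48 CpGs and that of Cacna1d 50, against 2 at each outer start. Only 0.235% of 21263 promoter windows of protein-coding genes held as many as the inner start of Cacna1c, and 0.113% as many as that of Cacna1d, whereas 84.9% held 2 or more. Kcnc1 had 30, a number reached by 7.66% of the windows. The window of 250 bases before to 50 after each start overlapped a region at 0 of the 54 listed starts of 38 channel genes. Over all protein-coding genes it did so at 79 of 21263 starts, or 0.372%.

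Most channel genes held a region, as most other genes of their length did. Higher regions lay in 28 of the 53 genes, lower regions in 18, both in 12 and neither in 19. Over all protein-coding genes, 15.3% held a higher region, 8.51% a lower region, 3.34% both and 20.5% a region of either list. This background is for genes with a median length of 17.2 kb, while the median channel gene spans 338 kb. For each channel gene the 100 other protein-coding genes nearest in length were therefore taken as its own background, a description and not a test, since the sets for genes of like length overlap. Summed over the 53 genes, these gave 31.4 genes with a higher region, 20 with a lower region and 36.2 with either, against 28, 18 and 34 observed. There were 63 higher regions against 74.1 from the genes of like length, and 29 lower regions against 27.5. In 17 genes there were 3 or more regions, against 15.3 from the genes of like length.

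Longer channel genes held a region more often, as longer genes did elsewhere. Of the 8 channel genes shorter than 100 kb, 1 held a region, where genes of like length gave 2.7. Between 100 and 400 kb, 16 of 26 held one, against 18.2. At 400 kb and above, 17 of 19 held one, against 15.3. The exceptions among the longest were Kcnd2 (514 kb), which encodes a Shal-type channel of A-type potassium currents, and Kcnq5 (564 kb), a subunit of M-type potassium channels. Both held 0 regions, as did 21 of the 100 genes nearest in length to each. The absence of a region says nothing of whether such a gene changed, because the stretches that the authors tested are unknown.

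**Figure D1:**
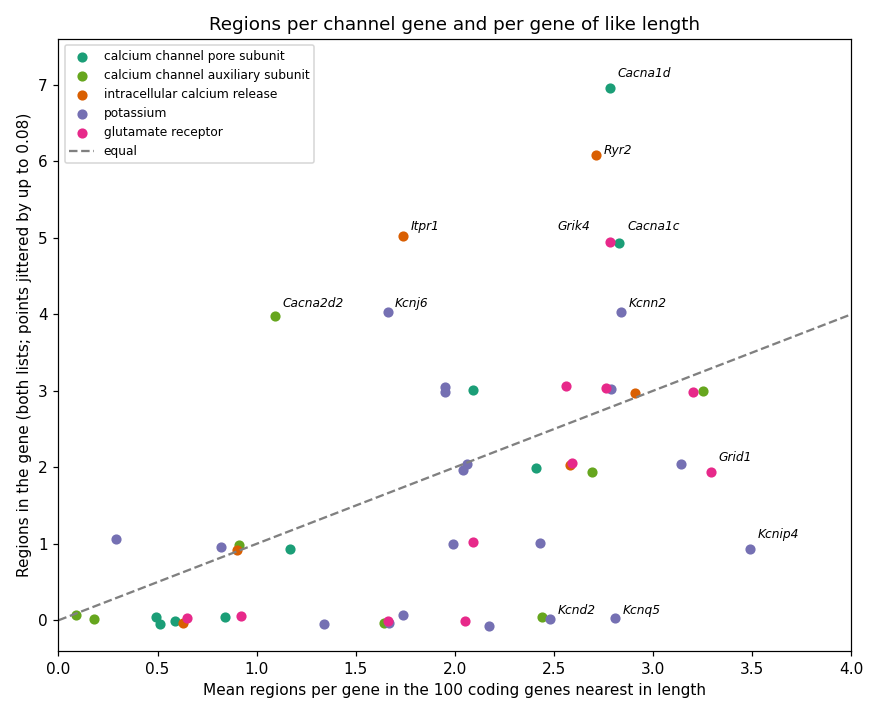
Each point is 1 of the 53 channel genes, coloured by class, with the mean number of regions in the 100 other coding genes nearest in length on the x axis and its own number of regions, both lists together, on the y axis; points on the dashed line held as many as that mean. Cacna1d with 7 regions, Ryr2 with 6 and Itpr1 with 5 stand above the line, while Kcnq5 and Kcnd2 with 0 and Kcnip4 with 1 stand below it.

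The directions were split about as in the rest of the genome, taken without matching for length. Genes of like length gave 74.1 higher and 27.5 lower regions, against 63 and 29 in the channel genes. Of the 92 regions in channel genes, 68.5% were higher (95% Wilson interval 58.4 to 77.1%), beside 69.6% in all other protein-coding genes and 68.1% of all 12594 regions. By sequence covered, higher regions took 44.4 kb and lower regions 11.5 kb of the channel genes, so that 79.4% of the base pairs were higher, beside 79.0% in other coding genes. The classes ranged from 58.8% higher in the calcium release channels to 83.3% in the calcium channel pore subunits, and their intervals overlapped.

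**Figure D2:**
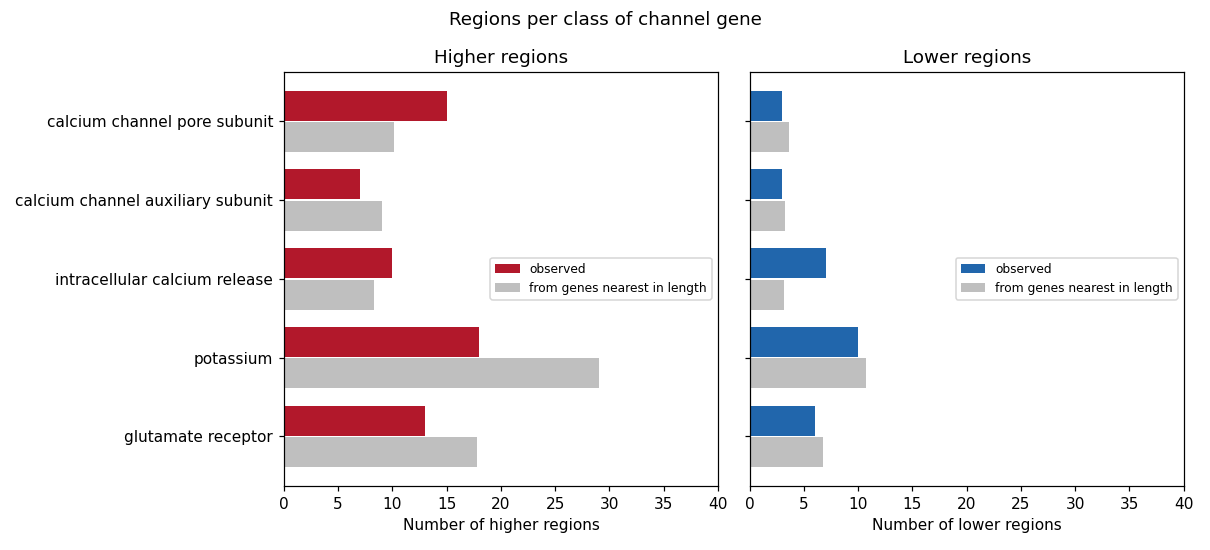
Horizontal bars give the number of higher regions (left, red) and lower regions (right, blue) in each of the 5 classes, and grey bars the number obtained from the 100 genes nearest in length to each member, summed over the class. Higher regions were 15 against 10.1 in the calcium channel pore subunits and 18 against 29.0 in the potassium channel genes, and lower regions were 7 against 3.2 in the calcium release channels.

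The 9 calcium channel pore subunits, which form the conducting channel and sense voltage, held 15 higher and 3 lower regions in 5 genes. Genes of like length gave 10.1 higher and 3.6 lower regions in 5.5 genes. The share of higher regions was 83.3% (Wilson interval 60.8 to 94.2%, 18 regions). All the regions lay in the L-type genes Cacna1c and Cacna1d and in the P/Q-, N- and R-type genes Cacna1a, Cacna1b and Cacna1e. The T-type genes Cacna1g, Cacna1h and Cacna1i, whose channels open at low voltage, and Cacna1s, the L-type channel of skeletal muscle, held 0. These last are also the short genes of the class, from 62.0 to 111 kb, and of the genes nearest to each in length between 47 and 61 of 100 held none either.

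Cacna1d, the L-type channel of endocrine, sinoatrial and hair cells, held 7 regions, the most of any channel gene, 5 higher and 2 lower. Among the 100 genes nearest in length (409 to 496 kb), 7 held as many regions and 11 as many higher ones. The higher regions were 200, 404, 759, 662 and 868 bp wide from the lower to the upper coordinate, and the lower ones 209 and 249 bp. The gene is on the minus strand, so the 868 bp region (chr14:30458979-30459846) is the nearest to the outer start, 31.74 kb downstream of it. The 662 and 759 bp regions followed, 63.67 and 25.70 kb upstream of the CpG-rich inner start shown above, and a lower region lay 35.02 kb downstream of that start. The regions of 404 and 868 bp also lay within annotated lncRNA genes, Gm52107 and 4831407H17Rik.

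Cacna1c, the principal L-type channel of heart and smooth muscle and also abundant in brain, held 5 higher and 0 lower regions. Of the 100 genes nearest in length, 17 held as many higher regions. The widest region (1881 bp, chr6:119072352-119074232) was 35.20 kb downstream of the CpG-rich inner start, and those of 495 and 200 bp were 55.83 and 58.12 kb downstream of it. The other regions, of 899 and 263 bp, lay near the opposite end of the gene, 91.0 and 34.7 kb from it. The start nearest to them was a further one listed inside the gene, with 5 CpGs in its window, 79.76 and 136.01 kb upstream of them. The regions thus formed a group of 3 within 24.0 kb and a distant pair, with 371.6 kb free of regions between them.

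The neuronal high-voltage channels held fewer. Cacna1a, the P/Q-type channel of fast transmitter release, had higher regions of 1194 and 872 bp and a lower region of 1581 bp (chr8:84393748-84395328), which was the widest lower region in any channel gene. All 3 lay within 23.9 kb, and the lower region started 14.6 kb beyond its higher neighbour. Cacna1e, the R-type channel, had higher regions of 200 and 808 bp and no lower one. Cacna1b, the N-type channel, had 1 higher region of 319 bp. Each of these counts was common in genes of like length, as 37, 62 and 65 of the 100 nearest genes held as many regions as Cacna1a, Cacna1e and Cacna1b.

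The auxiliary subunits divided by family. The alpha2delta subunits, which raise the number of channels at the membrane, held 7 higher and 3 lower regions in 4 of 4 genes. Genes of like length gave 5.9 and 2.1 regions in 2.9 genes. The beta subunits, cytosolic partners that help channels reach the membrane, held 0 regions in 4 genes, where genes of like length gave 4.3 regions in 1.7 genes. Cacnb1 and Cacnb3 are short (21.5 and 16.1 kb), but Cacnb2 and Cacnb4 span 385 and 248 kb, and of the genes nearest to these in length 21 and 32 of 100 held no region. Cacna2d2 stood out for its length of 130 kb, with 2 higher and 2 lower regions, a total that 2 of the 100 nearest genes reached. In Cacna2d2 the higher regions of 200 and 1484 bp were 7.51 and 9.38 kb downstream of the start and 1030 bp apart. Both lower regions were 200 bp wide and further into the gene, 59.03 and 110.36 kb from the start.

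Cacna2d3 (818 kb) held 3 higher regions of 200, 399 and 585 bp and Cacna2d1 (440 kb) 2 higher regions of 200 and 223 bp, with no lower region in either. Cacna2d4 held 1 lower region of 200 bp. In this class the genes lie near pore subunits in places. Cacna2d4 follows Cacna1c on chromosome 6 after a gap of 39.1 kb, and Cacna1d follows Cacna2d3 on chromosome 14 after 317 kb, so that counts of these neighbours share a stretch of chromosome.

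**Figure D3:**
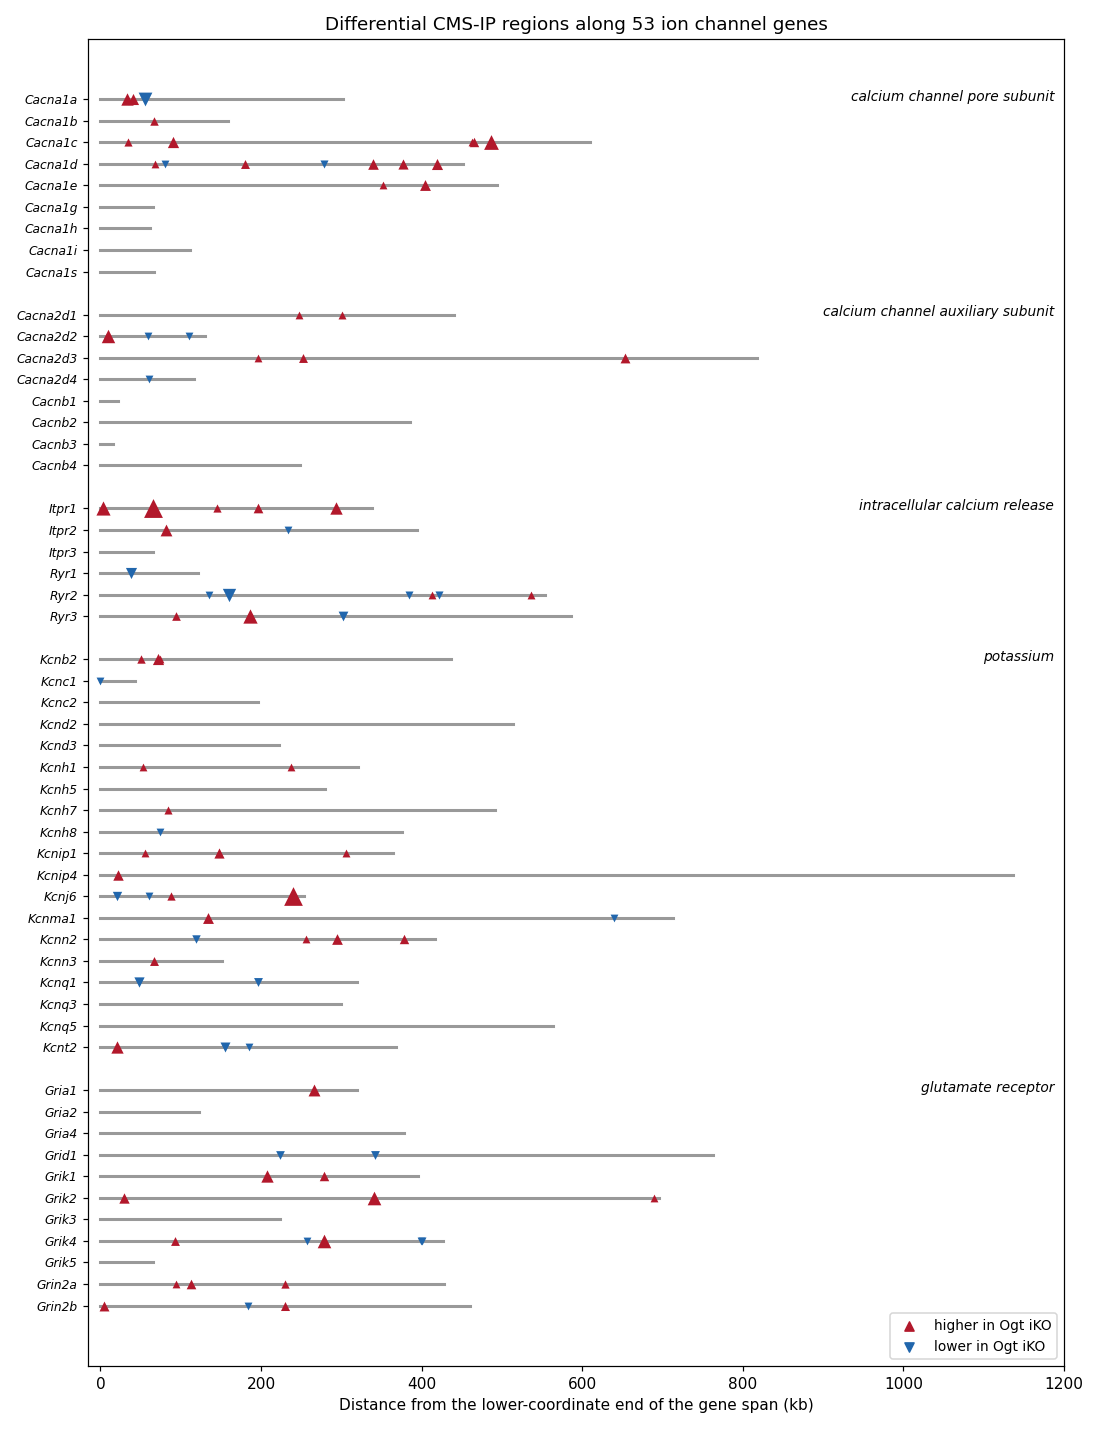
Each grey line is a channel gene drawn to scale from the lower-coordinate end of its span (kb), whatever its strand, grouped by class; red upward triangles mark higher and blue downward triangles lower regions at their midpoints, and larger symbols are wider regions. The 5 higher regions of Itpr1 and the 4 lower regions of Ryr2 lie spread along these genes, and 19 lines carry no symbol.

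The calcium release channels had the highest share of lower regions. Ryanodine receptors, which release stored calcium in muscle and neurons, and IP3 receptors, which do so in nearly all cells on hormonal signals, together held 10 higher and 7 lower regions in 5 of 6 genes, where genes of like length gave 8.3 and 3.2 regions in 4.1 genes. The higher share was 58.8% (Wilson interval 36.0 to 78.4%, 17 regions), an interval that contains the 69.6% of other coding genes. The families differed in their counts, with 4 higher and 6 lower regions in the ryanodine receptors and 6 higher and 1 lower in the IP3 receptors. Their higher shares were 40% (Wilson interval 16.8 to 68.7%) and 85.7% (48.7 to 97.4%), and the intervals overlapped. Ryr2 alone held 4 of the 6 lower regions and Itpr1 alone 5 of the 6 higher ones. Ryr3 held 2 higher and 1 lower region, and Itpr2 held 1 of each. The difference between the families thus rests on few genes and was not tested.

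Ryr2, the ryanodine receptor of the heart, held 4 lower and 2 higher regions. None of the 100 genes nearest in length (478 to 636 kb) held as many as 4 lower regions, whereas 51 held as many as 2 higher ones. The lower regions measured 200, 1450, 236 and 251 bp, of which the widest was at chr13:11713091-11714540. The higher ones measured 200 and 214 bp. One of these lay between the lower regions of 236 and 251 bp, 29.2 kb from the first and 7.5 kb from the second. The other was the nearest to the start, 17.17 kb downstream of it. A further higher region of 200 bp lay 5.37 kb beyond the opposite end of Ryr2 and was not counted, and it was the only region between 1 and 10 kb outside any of the 53 genes.

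Ryr3, expressed in brain and smooth muscle, held higher regions of 353 and 1739 bp and a lower region of 568 bp. Ryr1, the receptor of skeletal muscle, held 1 lower region of 877 bp. Of the 100 genes nearest in length, 49 held as many regions as Ryr3 and 53 as many as Ryr1.

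Itpr1, the IP3 receptor most abundant in cerebellar Purkinje cells, held 5 higher and 0 lower regions. Of the 100 genes nearest in length (316 to 363 kb), 2 held as many higher regions. They were 1702, 3357, 272, 554 and 1194 bp wide in order of coordinate, and the second (chr6:108276642-108279998) was the widest region in any channel gene. The first lay 3.5 kb from the lower-coordinate end of the gene, and the 5 were separated by gaps of 50.2 to 97.1 kb. Itpr2 held a higher region of 1040 bp and a lower one of 200 bp, and Itpr3, at 65.2 kb the short gene of the family, held 0.

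The potassium channel genes held the fewest regions for their length. In 19 genes with a median of 364 kb there were 18 higher regions where genes of like length gave 29.0, and 10 lower regions where these gave 10.7. Per megabase of span this was 2.40 higher regions, beside 4.54 over all protein-coding genes, a background that is not matched for length. The number of genes with a region, 13, was nearer to the 13.9 of genes of like length. The class is a selection of the potassium channel genes and was named with earlier results of these data known, so that these counts describe these 19 genes alone.

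Among the voltage-gated potassium channels, the KCNQ family had 0 higher regions in 3 genes against 5.3 from genes of like length. Kcnq1, the slow repolarising channel of the heart, held 2 lower regions of 678 and 394 bp. As many lower regions were found in 12 of the 100 genes nearest in length. The gene contains the imprinted antisense transcript Kcnq1ot1 (chromosome 7, 143213111 to 143296547, minus strand), whose start lies in the imprinting control region of the locus. The 394 bp region (chr7:143302807-143303200) had its midpoint 6.46 kb upstream of the start of Kcnq1ot1, and the 678 bp region lay 57.65 kb beyond the other end of that transcript. Kcnq3 and Kcnq5, which together form the M-current of neurons, held 0.

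The EAG, ERG and ELK channels held 3 higher and 1 lower region, against 5.9 and 2.3 from genes of like length. Kcnh1 had 2 higher regions, both of 200 bp, Kcnh7 a higher region of 249 bp and Kcnh8 a lower region of 200 bp, so that all 4 were at or near the minimum width of 200 bp, and Kcnh5 had 0. In the Shab, Shaw and Shal families, Kcnb2, a delayed rectifier, held 3 higher regions of 305, 883 and 200 bp within 24.2 kb. Kcnc2, Kcnd2 and Kcnd3 held 0, and Kcnc1 is described next.

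Kcnc1, a fast channel that lets interneurons fire at high rates, was the only channel gene with a region within 1 kb of a gene end. The region was lower and 207 bp wide (chr7:46395653-46395859). Its midpoint lay 0.71 kb upstream of the listed start and 0.5 kb before the gene span, outside the CpG-rich window shown above. At 42.5 kb Kcnc1 was also the shortest channel gene with a region, and 26 of the 100 genes nearest in length held one. In the channel genes of 100 kb or more, 0 of 91 regions lay within 1 kb of a gene end, beside 2.03% of the regions in other coding genes of that length.

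The potassium channels gated by intracellular calcium or sodium held 6 higher and 4 lower regions in 4 of 4 genes. Genes of like length gave 6.3 and 2.4 regions in 2.9 genes. Kcnma1, the large-conductance calcium-activated channel, had a higher region of 814 bp and a lower one of 200 bp, 505.9 kb apart. Kcnn2, a small-conductance calcium-activated channel, had higher regions of 200, 776 and 494 bp and a lower region of 312 bp, and its relative Kcnn3 had a higher region of 404 bp. In Kcnt2, a sodium-activated channel, the higher region of 1170 bp lay 20.94 kb downstream of the start and the lower regions of 618 and 200 bp lay 154.84 and 184.68 kb downstream.

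Kcnj6, which encodes the GIRK2 subunit of the inward rectifiers opened by G proteins, held 2 higher and 2 lower regions in 253 kb. Of the 100 genes nearest in length, 12 held 4 or more regions and 5 held 2 or more lower ones. Its higher region of 3296 bp (chr16:94983611-94986906), the second widest in the channel genes, was 12.44 kb downstream of the outer start. The lower regions of 485 and 207 bp lay 20.4 and 60.5 kb from the opposite end of the gene. The other higher region, of 286 bp, lay 88.0 kb from that end and 27.3 kb from the 207 bp lower region. The Kv channel interacting proteins, calcium-binding partners of the Shal channels, held higher regions only, 3 in Kcnip1 (206, 661 and 221 bp) and 1 in Kcnip4 (721 bp). Kcnip4 is the longest of the 53 genes at 1136 kb, and 73 of the 100 genes nearest in length held a higher region, with a mean of 2.56. Its single region lay within the lncRNA gene 5730480H06Rik, and 2 of the 3 regions of Kcnip1 also lay in lncRNA genes.

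The glutamate receptor genes held 13 higher and 6 lower regions in 7 of 11 genes, against 17.8 and 6.8 regions in 8.2 genes from genes of like length. Their higher share of 68.4% (Wilson interval 46.0 to 84.6%) lay next to that of all regions. The AMPA receptor genes, which encode the fast receptors of excitatory synapses, held 1 higher region in 3 genes, of 1066 bp in Gria1, and Gria2 and Gria4 held 0. Genes of like length gave 5.1 regions in 2.0 genes.

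The kainate receptor genes held 7 higher and 3 lower regions in 3 of 5 genes, against 7.9 and 3.0 regions in 3.7 genes from genes of like length. Grik2 had higher regions of 700, 1545 and 200 bp at 29.1, 340.5 and 688.9 kb of its 696 kb, the last of them 6.21 kb downstream of the start, and Grik1 had higher regions of 1180 and 514 bp. Grik4 held both directions, with higher regions of 387 and 1527 bp and lower regions of 200, 200 and 234 bp. Only 4 of the 100 genes nearest in length held as many as 3 lower regions. The last 2 of these were 1066 bp apart, 27.39 and 26.11 kb downstream of the start, and the higher region of 1527 bp lay between them and the first lower one. Grik3 and Grik5 held 0.

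The NMDA receptor genes, which encode subunits of the calcium-permeable receptors of synaptic plasticity, held 5 higher and 1 lower region in 2 of 2 genes, against 3.9 and 1.4 regions in 1.6 genes from genes of like length. Grin2a had higher regions of 200, 545 and 284 bp. Grin2b had higher regions of 604 and 424 bp, the first 4.9 kb from the lower-coordinate end of the gene, and a lower region of 211 bp between them. Grid1, a delta receptor that acts in synapse formation, held 2 lower regions of 363 and 386 bp and no higher one in 763 kb, where 73 of the 100 genes nearest in length held a higher region and 26 held as many lower ones.

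The regions of the channel genes were narrower than those of other coding genes in both directions. These other genes were not matched for length, and whether width goes with gene length was not tested. The median width was 495 bp for the 63 higher regions (interquartile range 222 to 878 bp) beside 583 bp (281 to 1063 bp) in other coding genes. For the 29 lower regions it was 234 bp (200 to 394 bp) beside 323 bp (226 to 619 bp). Regions at the minimum width of 200 bp made up 20.6% of the higher and 34.5% of the lower regions in channel genes, beside 12.5% and 15.2% in other coding genes. Counting only regions of at least 453 bp, the median of the whole series, the channel genes held 33 higher and 7 lower, so that 82.5% were higher beside 79.2% in other coding genes.

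**Figure D4:**
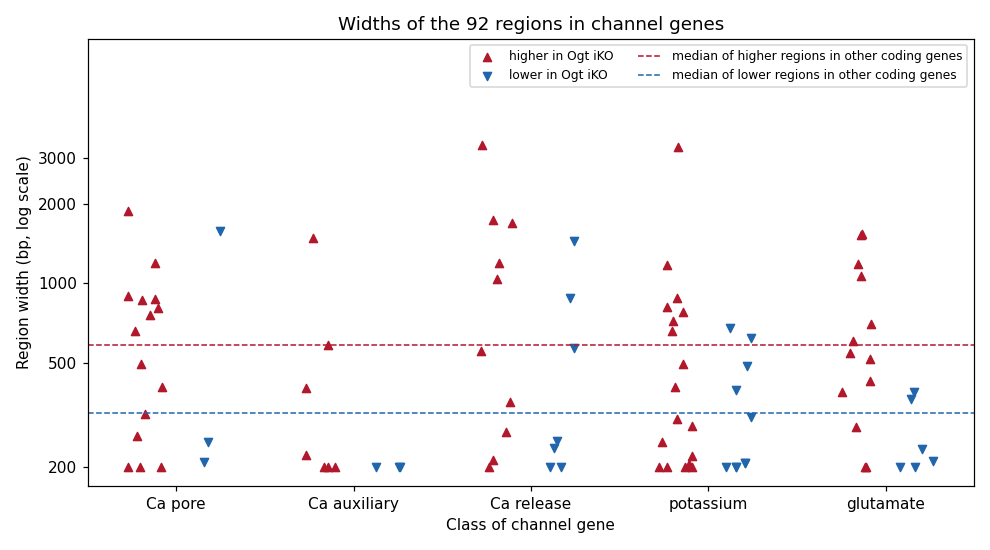
Points give the width of each of the 92 regions (bp, log scale) by class of channel gene, red upward triangles for higher and blue downward triangles for lower regions, jittered sideways; dashed lines are the medians in other coding genes (higher regions 583 bp, lower regions 323 bp). The widest points are the higher regions of Itpr1 (3357 bp) and Kcnj6 (3296 bp), and many lower regions sit at the floor of 200 bp.

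For the 60 regions in channel genes whose strand the promoter table gives, the position along the gene was counted from the 5′ end. The first 25% of the gene held 16 of 40 higher regions, or 40% (Wilson interval 26.3 to 55.4%), beside 22.8% in other coding genes of 100 kb or more. These 16 came from 11 genes, and without Cacna1c and Cacna1d, which gave 6 of them, the share was 33.3% (19.2 to 51.2%), an interval that contains the 22.8%. For lower regions the first 25% held 6 of 20, or 30%, beside 28.7%. The strand of the 15 channel genes with the other 32 regions was not used here.

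Where a channel gene held several regions, the directions were mixed about as often as elsewhere. Of 25 genes with more than 1 region, 13 held a single direction (52%), beside 743 of 1458 other coding genes with more than 1 region (51%). Of 58 pairs of adjacent regions within a gene, 38 had the same direction, 65.5% (Wilson interval 52.7 to 76.4%), beside 62.9% in other coding genes. Apart from the 5 regions in lncRNA genes named above, no region of a channel gene lay within the span of another annotated gene.

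Other genes of the same families were listed from family names alone: the sodium channels, the calcium channel gamma subunits, Cacna1f, the remaining potassium channels and the remaining ionotropic glutamate receptors. These 101 genes are shorter, with a median of 28 kb. A higher region was found in 20, a lower region in 14 and either in 27, against 20.3, 10.7 and 26.6 from genes of like length. The sodium channels, which carry the upstroke of the action potential, held 10 higher and 3 lower regions in 8 of 13 genes, against 6.1 and 2.4 regions in 5.3 genes. On chromosome 2, the nearby genes Scn3a, Scn2a and Scn1a held 2, 2 and 1 higher regions and no lower one, while Scn9a, the next sodium channel gene after Scn1a, held 0 regions. The gamma subunits held 0 higher and 4 lower regions in 3 of 8 genes, against 2.3 and 0.9 regions in 2.3 genes. Of the lower regions, 2 lay in Cacng2, the AMPA receptor partner stargazin, and 1 each in Cacng4 and Cacng5. The remaining potassium channel genes held 17 higher and 8 lower regions in 15 of 72 genes, against 16.5 and 7.4 regions in 15.8 genes.

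The promoters of channel genes were compared with all others. The median window of 250 bases held 16 CpGs in channel genes (54 starts of 38 genes) beside 10 in all protein-coding genes. Channel genes with and without a region had the same median of 16 CpGs. Among other coding genes the medians were 14 with a region and 8 without. A CpG, the letters CG, which read the same on both strands, was present in 93.4% of all windows, so that the count and not its presence separates them.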

How the data were processed

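The data are the authors' deposited tables of regions with higher and lower CMS-IP signal in Ogt iKO cells (mm10), holding a chromosome, start and end per region. Bismark and MACS2 are named, with no role, per the submitters' processing notes; how the difference was tested and thresholded, and how inputs, spike-ins and replicates entered, are not given in the sources used here. Starts were read as 0-based, and printed coordinates are 1-based. RefSeq (GRCm38.p6) gave the gene spans: of 49997 genes, 402 that lie outside the assembled nuclear chromosomes were dropped, leaving 49595, of which 21774 are protein-coding. Strand and starts came from the RefSeq promoter table, which matched 38 of the 53 channel genes.

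Regions were assigned by midpoint to spans extended by 1 kb. The background of a gene was its 100 other protein-coding genes nearest in length on a log scale, channel genes excluded, a number or a mean with no test. Genes on X and Y could enter it, although all 53 channel genes are autosomal. Named in full are genes with 3 or more regions, with both directions, with a region within 1 kb of a gene end, or with the widest region of a class; the rest were named to account for every gene. A result on other glutamate receptor genes is not reported here. The genes and lists were chosen with earlier results of these data known. Alternatives were another overlap rule, other extensions, wider regions only, clusters, base pairs, other neighbour numbers, length bins, autosomes, and leaving out Cacna1d or a class. Python 3.11.15, numpy 2.4.6, pandas 2.3.3, scipy 1.17.1 and matplotlib 3.10.9 were used. The assignment was checked against bedtools 2.31.1, with all 7128 gene and region pairs found by both. The neighbour background was run on simulated regions scattered at random in proportion to gene length. That setting is simpler than the deposited regions, so it does not show how well the background serves for them.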

Additional observations from a re-analysis of the deposited data

How the results depend on the processing

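Of 72 recomputed values of 7 results, 63 stayed within 1.5 times a count or within the Wilson interval of a share, and 9 did not. The observed number of channel genes with a region was 0.939 times that from genes of like length and ranged from 0.904 to 0.993 over all alternatives. With autosomes alone, genes of like length gave 37.6 genes with a region, beside 36.2 with X and Y included. The ratio was then 0.905. Keeping only the regions of 453 bp or more left 7 channel genes with a lower region, 33 higher and 7 lower regions, and 82.5% higher; fewer regions are counted there, and lower regions are narrower. Merging regions of a list within 100 kb left 41 higher clusters, by construction. Counting base pairs gave 79.4% higher. Without the 19 potassium channel genes, 18 genes with a higher region, 11 with a lower region and 19 lower regions remained, as fewer genes are counted. The share of higher regions in the first 25% of genes without Cacna1c and Cacna1d (33.3%) was added after seeing the data. No paired analysis was possible because positions are all that the tables give, and no replicate could be left out either. With no read counts, depth limits each call to an unknown extent.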
